A study of Mus musculus with 8 samples.

Results

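Absorptive enterocytes carry a set of membrane proteins that take sugars, peptides, amino acids, ions, bile acids and iron from the gut lumen, and 10 of their genes were followed here in RNA of sorted tuft cells: Slc5a1, Slc2a2, Slc2a5, Slc15a1, Slc6a19, Slc7a9, Slc26a3, Slc9a3, Slc10a2 and Slc40a1. They were chosen by gene symbol for their known roles, with earlier results of these data in hand. All 10 were found among the 35199 genes of the deposited count table, of which 21805 had a count. All 10 also passed the expression filter, which kept 12849 genes and asks for a minimal count in at least 4 of the 8 libraries.

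Tuft cells are scarce sensory cells scattered through the gut lining, whereas enterocytes make up most of the villus and do most of its absorption. An enterocyte takes up a nutrient across its brush border, often with a sodium ion or a proton that flows in with it, and passes it to the blood through a second carrier on the basolateral side. Ion gradients across the membrane drive this uptake. These transporters are therefore textbook enterocyte genes, and tuft cells are not known for them.

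Cells came from Dclk1-DTR-ZSgreen mice, in which a bacterial artificial chromosome with Dclk1 regulatory sequence drives a diphtheria toxin receptor and the green reporter ZSgreen, so that the sort rests on activity of that transgene. All 8 mice carried it, and mice were 8 to 10 weeks old at pump implantation. The paper used both sexes in its work without giving the sex of the sequenced mice. In the scopolamine group, 4 mice received scopolamine, which blocks all muscarinic acetylcholine receptor types, at 0.5 mg per kg per day from an osmotic pump for 7 days, and in the sham group 4 mice received sodium chloride in the same way. Viable EPCAM-high, ZSgreen-positive cells of the small intestine were sorted, 3000 from replicate 1 of each group and 4000 from every other mouse, and each mouse gave 1 library. The comparison asks which transporter RNAs differed in the reporter-positive cells after muscarinic blockade.

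Several properties of the libraries bear on every value below. Totals ran from 14343362 to 20857433 estimated counts with scopolamine and from 25769940 to 41428916 in sham, and since each sham total exceeded all scopolamine totals, an effect of depth cannot be told apart from one of treatment. Sham replicates 1 and 3 were made from less RNA with more amplification cycles than the remaining 6 libraries, here called standard-input. The mouse ID began with the letter M for scopolamine replicates 1 to 3 and sham replicate 1, and with N for the others. Letter and treatment are thus partly confounded. Levels are in CPM, counts scaled to the library total with TMM factors, and 3 counts, taken as the floor, correspond to 0.0729 to 0.212 CPM. The defining tuft genes were abundant in both groups, with Dclk1 at 4359 ± 1009 CPM (SD, n = 4) with scopolamine and 4871 ± 687 in sham, and Trpm5 at 1368 ± 326 and 1358 ± 220. Enterocyte genes had counts in all 8 libraries at uneven levels: Fabp1, a fatty acid binding protein, stood at 2128 to 5272 CPM, Sis, the brush border sucrase-isomaltase, at 12.8 to 64.8 CPM with scopolamine and 4.01 to 41.3 in sham, and Alpi, the intestinal alkaline phosphatase, at 26.7 to 102 and 0.746 to 45.4 CPM. Bulk RNA cannot tell fewer cells of a type from less RNA per cell, nor enterocytes in the sort from enterocyte RNA made by the reporter-positive cells.

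Per kilobase of exon, the order of the 10 genes was led by 2 of them. With scopolamine Slc5a1 was at 31.6 ± 13.2 CPM per kb (SD, n = 4) and Slc7a9 at 18.7 ± 11.2, a gap within their spread. Slc26a3 at 2.98 ± 1.30, Slc2a5 at 2.70 ± 2.24, Slc9a3 at 1.66 ± 1.41 and Slc6a19 at 1.28 ± 1.10 CPM per kb lay several times lower and within their spread of each other. Slc15a1 at 0.847, Slc2a2 at 0.505, Slc40a1 at 0.298 and Slc10a2 at 0.204 CPM per kb closed the order, each within the spread of its neighbours. In sham Slc7a9 stood first at 8.74 ± 3.44 CPM per kb and Slc5a1 second at 5.54 ± 4.10, again within their spread. Exon lengths were taken from GENCODE release M21. Against the 21805 genes with a count, the mean CPM over the 8 libraries was above 89.9% of genes for Slc5a1, above 80.9% for Slc7a9 and above 45.9% for Slc10a2, the lowest of the 10.

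Across the 10 genes, 8 had a higher fitted level with scopolamine and 2, Slc10a2 and Slc40a1, a lower one, where 49.1% of all genes tested were higher. Their median log2 fold change was 1.17, beside -0.01 over all 12849 genes. In edgeR's quasi-likelihood test no member had an adjusted p (Benjamini-Hochberg) under 0.1, and neither did any other gene (0% of genes tested), the smallest adjusted p being 0.439 over all genes and 0.812 among the members. At an unadjusted p under 0.05, edgeR held 428 genes that were higher and 342 that were lower, and limma-voom also called 0 genes after adjustment, whereas DESeq2 called 190. On that unadjusted threshold 2 of the 10 members, Slc5a1 and Slc15a1, were higher (3.33% of all genes tested) and 0 were lower (2.66% of all genes). DESeq2 called 1 member, Slc5a1, as higher (0.982% of the genes it tested). Complete separation, with all 4 scopolamine libraries above all 4 sham libraries, was found for 1 member, again Slc5a1 (1.92% of genes).

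**Figure D1:**
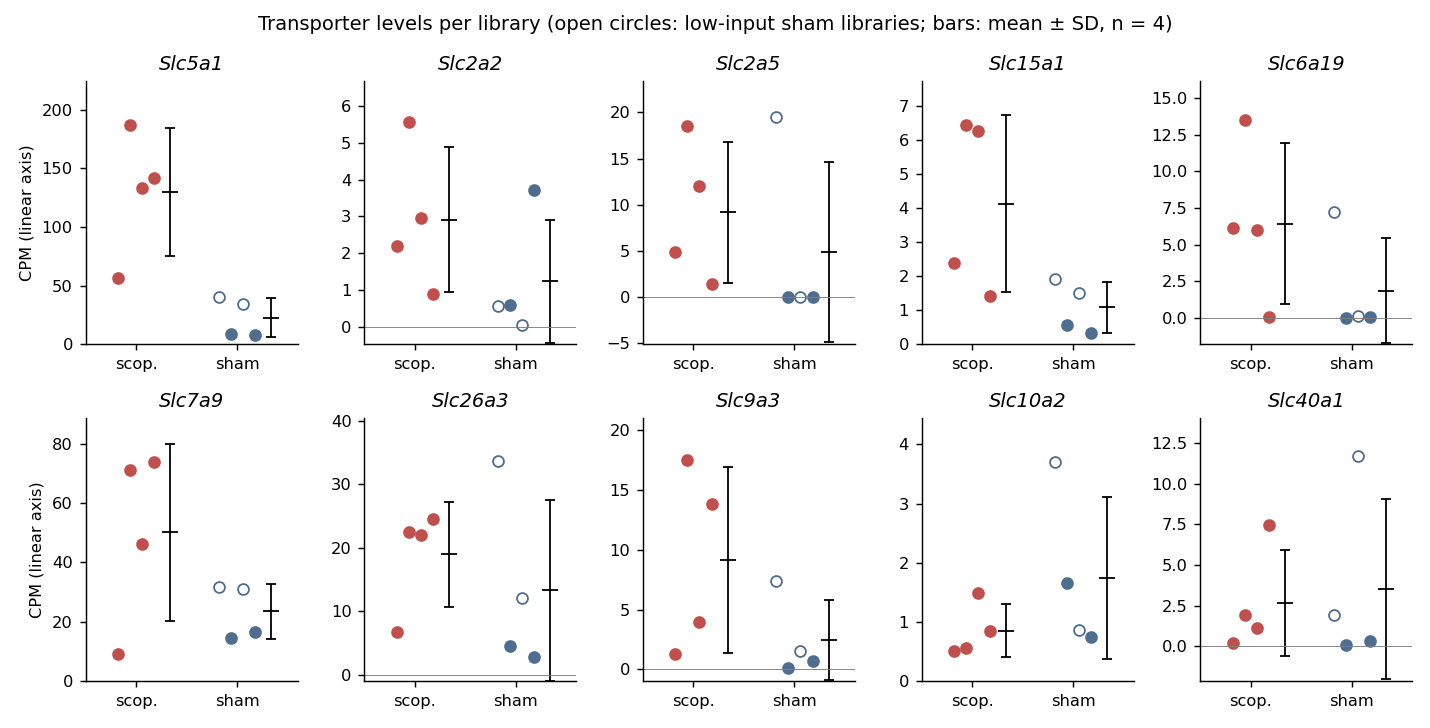
Level of each of the 10 transporter genes in CPM (linear vertical axis, scaled per gene) in the 4 scopolamine and 4 sham libraries, with 1 circle per library, open circles for the low-input sham libraries, and mean ± SD (n = 4) beside each group. The groups separate for Slc5a1 alone, at 56.3 to 187 CPM against 8.15 to 39.9, and single sham libraries stand high for Slc2a5, Slc6a19, Slc26a3 and Slc40a1.

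The RNA input of the sham libraries moved with these values. In 8 of the 10 members both low-input sham libraries lay above both standard-input ones, a pattern that 17% of all genes tested showed. Without both low-input libraries, edgeR called 1 member at an adjusted p under 0.1, Slc5a1, among 9 genes in all (0.0649% of the 13869 genes then tested, all 9 higher). At an unadjusted p under 0.05 7 members were then higher (6.04% of genes) and 0 lower (2.6% of genes), and in 5 members all 4 scopolamine libraries exceeded both remaining sham libraries (8.83% of genes). Slc2a5 is among both the 7 and the 5, and Slc6a19 among the 7, with 0 and 2 counts in those sham libraries. They passed the filter of that fit only through the scopolamine libraries, so their direction there was fixed in advance. The median log2 fold change of the members was 3.48 in that fit, beside 0.00 over all genes. Markers of several other cell types stood high in the same fit: the median was 2.74 for enterocyte genes that are not transporters (26 of 34 higher at an unadjusted p under 0.05), 2.78 for goblet and Paneth genes (9 of 17), 5.95 for enteroendocrine genes (10 of 16) and 4.74 for lymphocyte genes (7 of 11), whereas it was 0.34 for stem and cycling cell genes (1 of 13), 0.58 for macrophage genes (0 of 3) and -0.11 for tuft genes (0 of 30 higher, 1 lower). Amplification cycles were 15 in the low-input libraries and 10 in all others. With cycles as a covariate the comparison thus rests on the same standard-input libraries and is not a separate test. In that fit edgeR called Slc5a1 as the 1 member (0.0389% of genes). At an unadjusted p under 0.05 8 members were higher (4.25% of genes) and 0 lower (1.92% of genes). Both standard-input sham libraries had the mouse ID letter N, beside M in scopolamine replicates 1 to 3. In these fits the letter is therefore largely confounded with treatment. With the letter as a covariate over all 8 libraries, edgeR gave 1 member, Slc5a1, an unadjusted p under 0.05 (5.3% of all genes). Whether input, cycles, the letter or the mice themselves set the level of the low-input libraries was not tested.

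**Figure D2:**
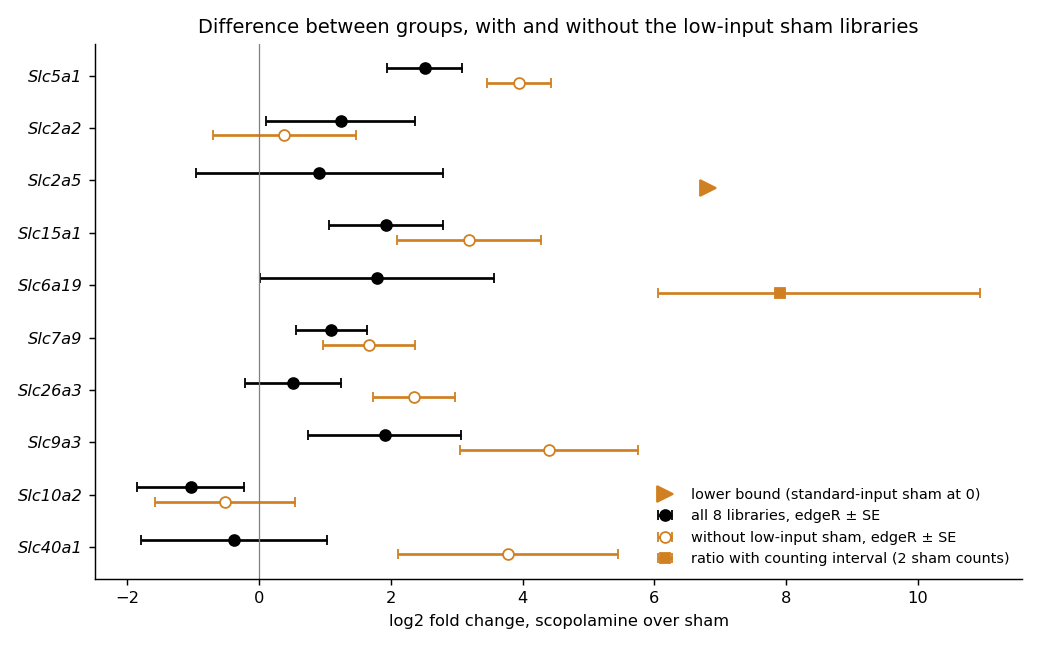
log2 fold change of scopolamine over sham for each transporter, with filled circles for edgeR on all 8 libraries and open circles for edgeR without the low-input sham libraries (bars: standard error). For Slc2a5, at 0 in both standard-input sham libraries (mouse ID letter N), the triangle is a lower bound against 3 counts per library. For Slc6a19, with 2 counts there, the square is the ratio of CPM with its 95% counting interval. Of the 10 filled circles, 8 lie right of 0.

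Among the sugar carriers, Slc5a1 (chr5:33104219-33162870, plus strand, GRCm38) encodes SGLT1, the sodium-coupled carrier that brings glucose and galactose across the brush border. Its level was 56.3, 187, 134 and 142 CPM in scopolamine replicates 1 to 4 and 39.9, 8.46, 34.5 and 8.15 CPM in sham replicates 1 to 4. The lowest scopolamine library thus lay above the highest sham library, and within sham the low-input libraries 1 and 3 were several times as high as the standard-input ones. The group means of 130 ± 54.3 and 22.8 ± 16.8 CPM (SD, n = 4) differed by a log2 fold change of 2.51 (SE 0.57, edgeR adjusted p = 0.812, unadjusted p = 0.00117). DESeq2 gave 2.53 with an adjusted p of 0.00464. The exact permutation test on log2(CPM + 1), two-sided over 70 assignments of the libraries, gave p = 0.0286, the smallest that 4 against 4 allow. Without the low-input libraries the log2 fold change was 3.94 (SE 0.49, edgeR adjusted p = 0.0444). With cycles as a covariate, which rests on the same standard-input libraries, it was 3.97 (SE 0.48, edgeR adjusted p = 0.0317). The gene overlaps the processed pseudogene Gm15936 and, on the opposite strand, the transcribed pseudogene 5033423K11Rik, so its counts can include theirs.

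Slc2a2 (chr3:28697903-28731359, plus strand) encodes GLUT2, the basolateral carrier through which glucose, galactose and fructose leave the enterocyte. It was scarce, at 2.2, 5.57, 2.96 and 0.898 CPM with scopolamine and 0.568, 0.584, 0.0495 and 3.73 CPM in sham in replicate order. Sham replicate 4 was above 3 of the 4 scopolamine libraries, so the groups overlapped. Its log2 fold change was 1.24 (SE 1.13, edgeR adjusted p = 0.884), and its 0.38 (SE 1.09) without the low-input libraries made Slc2a2 the 1 member above 0 in both fits whose difference shrank when they were left out. Without sham replicate 4 alone it was 2.85. The antisense gene 1700112D23Rik overlaps it.

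Slc2a5 (chr4:150119283-150144169, plus strand) encodes GLUT5, the fructose carrier of the brush border. It was measured at 4.86, 18.5, 12.0 and 1.37 CPM with scopolamine. In sham it reached 19.5 CPM in replicate 1, from 515 counts, and held 0, 1 and 0 counts in replicates 2 to 4. All 4 scopolamine mice therefore had Slc2a5 RNA, 1 sham mouse had as much as the highest of them, and the other sham libraries lay under the floor of 3 counts. The fitted log2 fold change of 0.91 (SE 1.87, edgeR adjusted p = 0.967) averages over that split. Against both standard-input sham libraries, each at 0 and set to 3 counts per library, the scopolamine mean of 9.18 CPM was at least 113-fold higher. Both of those sham libraries had the mouse ID letter N. By letter, Slc2a5 was at 4.86 to 19.5 CPM in M libraries and at 0 to 1.37 CPM in N libraries, each letter holding both treatments.

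Among the carriers of protein digestion products, Slc15a1 (chr14:121459621-121505252, minus strand) encodes PEPT1, the proton-coupled carrier of di- and tripeptides. Its values were 2.40, 6.46, 6.28 and 1.42 CPM with scopolamine and 1.93, 0.559, 1.51 and 0.328 CPM in sham. Replicate 4 of the scopolamine group lay inside the sham range, while every other scopolamine library was above all sham libraries. The fitted difference was a log2 fold change of 1.93 (SE 0.87, edgeR unadjusted p = 0.0482, adjusted p = 0.812) and 3.19 (SE 1.09, edgeR adjusted p = 0.537) without the low-input libraries. With the letter of the mouse ID as a covariate, which is M for 3 scopolamine mice and 1 sham mouse and N for the others, it was 1.11 (SE 0.95, edgeR unadjusted p = 0.271), and in 9 of 18 alternatives the unadjusted p was over 0.05. Slc15a1 was at 1.93 to 6.46 CPM in M libraries and at 0.328 to 1.51 CPM in N libraries, without overlap.

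Slc6a19 (chr13:73679745-73704865, minus strand) encodes B0AT1, the sodium-coupled carrier of neutral amino acids. It was at 6.11, 13.5, 6.0 and 0.0473 CPM with scopolamine and 7.23, 0, 0.149 and 0.0597 CPM in sham. Each group thus held libraries at or near 0: scopolamine replicate 4 with 1 count, and sham replicates 2 to 4 with 0, 6 and 2 counts. The log2 fold change was 1.79 (SE 1.78, edgeR adjusted p = 0.898). Set against the 2 counts of the standard-input sham libraries together, the scopolamine mean was 239 times as high, with a 95% counting interval of 66.2 to 1975 that leaves out the differences between mice. Both of those sham libraries had the mouse ID letter N. By letter, Slc6a19 was at 6.0 to 13.5 CPM in M libraries and at 0 to 0.149 CPM in N libraries, each letter holding both treatments. Slc6a19 was the 1 of the 8 higher members whose direction turned under an alternative, to -0.034 with the letter of the mouse ID as a covariate. Slc6a19os overlaps the gene on the opposite strand.

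Slc7a9 (chr7:35448796-35466036, plus strand) encodes the light chain of the carrier for cystine and dibasic amino acids. It stood at 9.22, 70.9, 46.1 and 73.9 CPM with scopolamine and 31.6, 14.4, 31.1 and 16.5 CPM in sham. Scopolamine replicate 1 was below every sham library and the other 3 above every one, so the overlap rested on 1 mouse. Fitted over all libraries, the log2 fold change was 1.10 (SE 0.54, edgeR unadjusted p = 0.0679, adjusted p = 0.812) and 1.66 (SE 0.70, edgeR adjusted p = 0.566) without the low-input libraries. Sham values again paired by input, the low-input libraries averaging 31.3 CPM and the standard-input ones 15.5.

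Ion exchangers showed the same overlap. Slc26a3 (chr12:31390871-31473917, plus strand) encodes DRA, which takes up chloride in exchange for bicarbonate. Its levels were 6.66, 22.6, 22.0 and 24.6 CPM with scopolamine and 33.8, 4.52, 12.0 and 2.81 CPM in sham. Replicates 2 to 4 of the scopolamine group were close together, and sham replicate 1 exceeded them all. The log2 fold change was 0.52 (SE 0.73, edgeR adjusted p = 0.934) and 2.35 (SE 0.62, edgeR unadjusted p = 0.00445, adjusted p = 0.400) without the low-input libraries. The processed pseudogene Gm9359 lies within the gene on the same strand.

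Slc9a3 (chr13:74121457-74169442, plus strand) encodes NHE3, the brush border exchanger that takes up sodium for protons. It was at 1.25, 17.5, 3.95 and 13.8 CPM with scopolamine and 7.42, 0.122, 1.54 and 0.716 CPM in sham. Scopolamine replicates 1 and 3 fell inside the sham range, below sham replicate 1, and replicates 2 and 4 lay above it. The log2 fold change was 1.90 (SE 1.16, edgeR adjusted p = 0.8289), and 4.396 (SE 1.35, edgeR adjusted p = 0.487) without the low-input libraries.

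The remaining pair of members did not share this direction. Slc10a2 (chr8:5083219-5105351, minus strand) encodes ASBT, the sodium-coupled bile acid carrier of the distal small intestine. It was low everywhere, at 0.501, 0.562, 1.48 and 0.851 CPM with scopolamine and 3.71, 1.65, 0.867 and 0.746 CPM in sham, from 10 to 98 counts. The groups overlapped, the highest value being that of sham replicate 1, and the log2 fold change was -1.04 (SE 0.81, edgeR adjusted p = 0.873) with all libraries and -0.51 (SE 1.06) without the low-input ones.

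Slc40a1 (chr1:45908068-45926523, minus strand) encodes ferroportin, through which iron leaves the enterocyte and also the macrophage. It was measured at 0.200, 1.92, 1.13 and 7.47 CPM with scopolamine and 1.89, 0.0729, 11.7 and 0.298 CPM in sham. Both groups spanned more than an order of magnitude, with 1 library in each, scopolamine replicate 4 and sham replicate 3, far above the rest. The log2 fold change was -0.38 (SE 1.41, edgeR adjusted p = 0.987) and turned to 3.78 (SE 1.67, edgeR adjusted p = 0.577) without the low-input libraries, so no direction can be given. The defining macrophage markers Adgre1, Csf1r and C1qa were at 0 to 0.635 CPM in every library, while the whole list of 13 macrophage genes summed to 19.7 to 36.3 CPM with scopolamine and 15.3 to 18.5 in sham, without overlap.

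The exact permutation tests of the 9 members other than Slc5a1 gave p from 0.0857 to 0.914, two-sided.

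Summed over the 10 genes, transporter RNA was 89.7, 345, 235 and 266 CPM in scopolamine replicates 1 to 4 and 147, 30.4, 93.5 and 33.3 CPM in sham replicates 1 to 4. Scopolamine replicate 1 was below both low-input sham libraries and above both standard-input ones, and the log2 ratio of the group means was 1.62. Slc5a1 made up 53.3 to 62.8% of the sum with scopolamine and 24.5 to 36.9% in sham, and without it the log2 ratio was 0.96. The share of Slc5a1 in the sum therefore did not overlap between the groups.

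Other enterocyte genes were read beside the transporters. Of 37 enterocyte markers that are not transporters, 34 were tested, 33 were higher and 1 lower with scopolamine, 9 were higher and 0 lower at an unadjusted p under 0.05 (3.33% and 2.66% of all genes), 0 passed the adjusted threshold in edgeR and 1 in DESeq2, and their median log2 fold change was 1.45. Among the defining ones, Sis was at 39.0 ± 22.8 CPM (SD, n = 4) with scopolamine and 13.9 ± 18.3 in sham, and Apoa4, an apolipoprotein of fat-absorbing enterocytes, at 94.3 ± 29.2 and 24.9 ± 29.7. Their summed level was 7664 to 13466 CPM with scopolamine and 5661 to 12136 in sham, the highest sham value being that of replicate 1, and none of the 36 found in the table was at 0 in all libraries. Set against that sum, the 10 transporters amounted to 1.17, 2.56, 1.95 and 2.24% with scopolamine and 1.22, 0.470, 1.41 and 0.588% in sham, so this share overlapped between the groups.

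**Figure D3:**
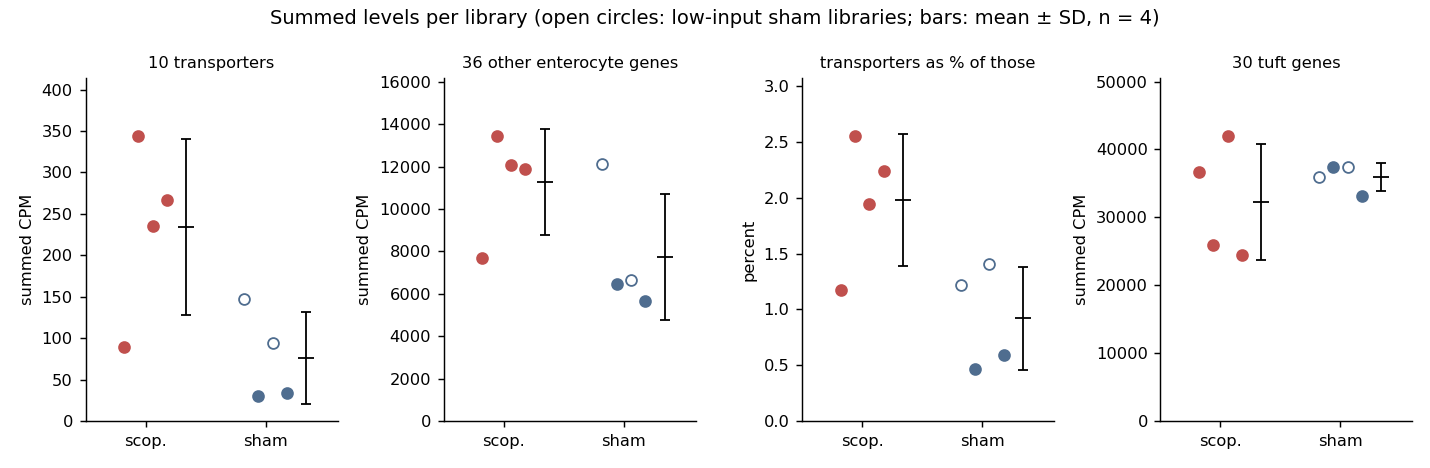
Summed CPM per library of the 10 transporters, of the other enterocyte markers and of 30 tuft markers, and the transporter sum as a percent of the other enterocyte sum, with 1 circle per library (open: low-input sham) and mean ± SD (n = 4). Transporters range from 89.7 to 345 CPM with scopolamine and 30.4 to 147 in sham, and the tuft sums from 24463 to 42050 and from 33100 to 37457.

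Markers of further cell types were measured beside these. Of all genes tested, 3.33% were higher and 2.66% lower at an unadjusted p under 0.05 in edgeR. DESeq2 called 190 genes in either direction, with 0.982% of the genes it tested called higher. Of 30 tuft genes 5 were higher and 25 lower with scopolamine (median log2 fold change -0.15; 0 higher and 2 lower at an unadjusted p under 0.05, 1 called lower by DESeq2). Of 17 goblet and Paneth genes tested, 16 were higher (median 1.53, 3 higher at that threshold; sums of 793 to 3643 CPM against 416 to 1575), and of 16 enteroendocrine genes 13 were higher (median 0.72, 0 at the threshold, 1 called higher by DESeq2; sums of 482 to 1225 against 180 to 1630). Lymphocyte genes summed to 34.6 to 132 CPM with scopolamine and 19.0 to 163 in sham. Of 13 macrophage genes 3 passed the filter, all 3 with a higher fitted level (median 0.78, 0 at the threshold). Of 13 stem and cycling cell genes 7 were higher and 6 lower (median 0.06), with 3 higher and 0 lower at the threshold and 1 called higher by DESeq2. The part of other cells in the transporter values was not tested.

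Position along the gut was read from marker genes, the study's analyses being made in jejunum. Of 7 proximal small-intestinal markers tested, 7 were higher with scopolamine (median log2 fold change 0.65), and their sums overlapped at 2394 to 4754 CPM against 2349 to 5447 in sham. By mouse ID letter the proximal sums were 2786 to 5447 CPM in M libraries and 2349 to 2500 CPM in N libraries, without overlap. Of 7 distal markers tested, 6 were higher (median 0.54), with sums of 51.2 to 386 CPM against 35.2 to 214. In replicate order the distal sums, which include Slc10a2 itself, were 51.2, 386, 187 and 274 CPM with scopolamine and 214, 50.7, 76.0 and 35.2 CPM in sham. Unlike the proximal sums, the distal ones overlapped between the letters. Sham replicate 1 had the highest distal sum of its group and the highest level of the distal carrier Slc10a2, and sham replicate 4 the lowest of both in that group, whereas scopolamine replicate 2, with the highest sum of all, had 0.562 CPM of Slc10a2.

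Several members act with a partner protein, and 12 such genes were read as a list of their own. Of the 9 that were tested, 7 were higher and 2 lower, with 1 (Slc51a) higher and 0 lower at an unadjusted p under 0.05 (3.33% and 2.66% of all genes) and a median log2 fold change of 0.34. Slc3a1, the heavy chain that pairs with the Slc7a9 product, was at 10.5, 26.2, 14.8 and 15.7 CPM with scopolamine and 6.25, 0, 0 and 1.70 CPM in sham, with no overlap. Its log2 fold change was 3.09 (SE 1.47, edgeR adjusted p = 0.812; exact permutation p = 0.0286).

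Among the scaffold proteins of brush border exchangers, Slc9a3r1, which binds NHE3, was at 530 ± 123 CPM with scopolamine and 545 ± 30.7 in sham (SD, n = 4), a log2 fold change of -0.04 (SE 0.17, edgeR adjusted p = 0.990). Pdzk1, a related scaffold, was at 0 CPM in 2 libraries of each group and did not pass the filter. For iron, Slc11a2, the importer DMT1, which was counted with the other metal carriers and not on the partner list, had a log2 fold change of 1.23 (SE 0.51, edgeR unadjusted p = 0.0366, adjusted p = 0.812), and Heph, the ferroxidase that acts beside ferroportin, of 0.03 (SE 0.26) at 66.7 ± 13.4 and 65.3 ± 20.2 CPM. Heph did not follow the high Slc40a1 libraries, being at 48.5 CPM in scopolamine replicate 4 and 60.7 CPM in sham replicate 3.

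Bile acid handling genes differed among themselves. Slc51a, a subunit of the basolateral exporter, was at 3.71, 92.5, 42.2 and 63.2 CPM with scopolamine and 27.4, 3.91, 6.96 and 3.07 CPM in sham (log2 fold change 2.29, SE 0.90, edgeR adjusted p = 0.812). Its partner subunit Slc51b was at 14.05 ± 7.80 and 11.1 ± 4.09 CPM (0.34, SE 0.50, edgeR adjusted p = 0.935). Fabp6, the bile acid binding protein of the ileum, was above 5 CPM in 3 libraries, at 35.5 CPM in scopolamine replicate 3 and at 15.9 and 8.99 CPM in sham replicates 1 and 3, and its log2 fold change was 0.51 (SE 1.83, edgeR adjusted p = 0.986).

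A wider list of 93 other transport genes was read for comparison, of which 91 had a count and 79 were tested. Of these 60 were higher and 19 lower, 14 were higher and 0 lower at an unadjusted p under 0.05 (beside the 3.33% and 2.66% of all genes), and the median log2 fold change was 0.56. By substrate, 11 of 12 amino acid carriers were higher (median 0.98), 6 of 7 sugar carriers (median 0.46), 13 of 16 carriers of vitamins, nucleosides and organic acids (median 0.79), 12 of 14 bile acid and organic ion genes (median 0.62), 8 of 11 iron and metal genes (median 0.26) and 10 of 19 ion and water genes (median 0.10). Among those with the smallest unadjusted p were Abcg2, Tfrc, Abcc2, Slc7a8 and Slc1a1, each with a higher fitted level with scopolamine.

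Abcg2, an apical exporter of urate and drugs, was at 7.41, 37.8, 24.3 and 29.4 CPM with scopolamine and 3.52, 3.72, 1.83 and 0.955 CPM in sham, with no overlap, a log2 fold change of 3.30 (SE 0.62, edgeR adjusted p = 0.542) and a DESeq2 call. Tfrc, the transferrin receptor, was at 14.3 to 64.6 CPM against 5.31 to 14.2 (1.94, SE 0.48, edgeR adjusted p = 0.812). Tfrc did not overlap between groups either (a pattern of 1.92% of all genes), although the gap between the lowest scopolamine and the highest sham library was narrow. Abcc2, an apical exporter of conjugates, and the amino acid carriers Slc7a8 and Slc1a1 overlapped, with log2 fold changes of 3.14, 2.05 and 2.68.

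**Figure D4:**
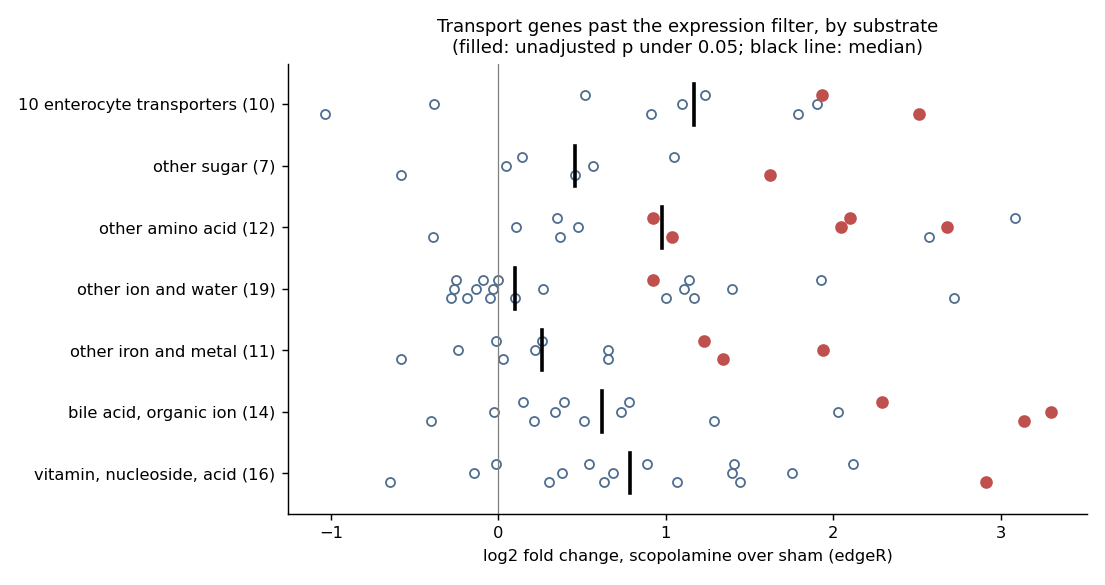
edgeR log2 fold change of scopolamine over sham for the 10 transporters and 79 other transport genes past the filter, 1 circle per gene by substrate, filled where the unadjusted p was under 0.05, with the median of each class as a black line. Medians run from 0.10 for other ion and water genes to 1.17 for the 10 transporters, and every filled circle lies right of 0.

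How the members varied together was described by Pearson's r of log2 CPM over the 8 libraries, which span both treatments, both input classes, both mouse ID letters and a range of depth. Of 45 pairs, 39 had r above 0 and 8 had r of 0.8 or more, with a median of 0.53. The closest pairs were Slc2a5 with Slc6a19 (r = 0.91), Slc5a1 with Slc15a1 (0.88), Slc5a1 with Slc9a3 (0.86) and Slc26a3 with Slc9a3 (0.86), so that brush border carriers of different substrates varied together over these libraries. For Slc2a5, Slc6a19 and Slc15a1 every M library lay above every N library. What made the members vary together was not tested. Slc10a2, with a mean r of -0.01 to the other members, and Slc2a2, with 0.09, stood apart, and Slc2a2 with Slc40a1 had the lowest r of all pairs, -0.45.

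The 10 genes whose log2 CPM followed the mean of the members most closely over those 8 libraries were Ms4a10, Eci3, Sis, Gm3776, Tcea3, Gsta1, Fabp2, Mlxipl, Gzmb and Mfsd4a, with r from 0.96 to 0.99, and 58 of 12839 genes reached 0.9. Sis, Fabp2 and Gsta1 are on the enterocyte list, Mlxipl encodes ChREBP, a transcription factor that responds to sugar, and Gzmb encodes granzyme B, a protease of cytotoxic lymphocytes. Ms4a10, the closest, was at 29.2 ± 23.8 CPM with scopolamine and 9.26 ± 13.96 in sham, and Gzmb at 7.84 ± 7.25 and 1.93 ± 3.76 (SD, n = 4).

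The 250 bases before the RefSeq transcription starts of the members were searched for motifs of factors known in enterocytes. RefSeq windows on GRCm38.p6 were found for 9 of the 10 members, 10 windows in all. RefSeq starts can differ from the GENCODE coordinates given above. The windows of Slc26a3, Slc6a19 and Slc7a9 lie inside the gene as GENCODE places it. Those of Slc2a5 and Slc10a2 overlap its GENCODE start, so not every window is upstream of the whole gene. GTTAAT followed by any base and ATT, a site of HNF1 type, was in the windows of Slc26a3 and Slc10a2 and in 0.371% of 32851 windows, and CAAAGT, of HNF4 type, in those of Slc2a2 and Slc15a1 and in 12.6%. AGATAA, of GATA type, was in that of Slc7a9 and in 9.99%, and TTTATG, of CDX type, in that of Slc10a2 and in 10.8%. Both strands were searched, and none of the 4 motifs was shared by all members. Shown are the window of Slc5a1, the leading member, without a match, and those of Slc26a3 and Slc15a1, which each hold 1, with the matching letters in capitals, 5′ to 3′ on the strand of the gene, at chr5:33103969-33104218 (plus), chr12:31437969-31438218 (plus) and chr14:121505255-121505504 (minus).
Slc5a1: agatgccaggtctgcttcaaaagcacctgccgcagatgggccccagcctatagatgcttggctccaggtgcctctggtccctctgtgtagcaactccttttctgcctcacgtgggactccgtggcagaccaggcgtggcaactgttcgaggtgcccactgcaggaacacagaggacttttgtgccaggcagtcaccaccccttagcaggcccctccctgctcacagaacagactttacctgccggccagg
Slc26a3: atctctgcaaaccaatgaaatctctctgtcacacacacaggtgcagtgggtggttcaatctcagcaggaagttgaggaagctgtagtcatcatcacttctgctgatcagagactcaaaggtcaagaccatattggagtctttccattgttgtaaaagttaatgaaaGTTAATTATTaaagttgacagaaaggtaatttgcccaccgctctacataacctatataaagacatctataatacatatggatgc
Slc15a1: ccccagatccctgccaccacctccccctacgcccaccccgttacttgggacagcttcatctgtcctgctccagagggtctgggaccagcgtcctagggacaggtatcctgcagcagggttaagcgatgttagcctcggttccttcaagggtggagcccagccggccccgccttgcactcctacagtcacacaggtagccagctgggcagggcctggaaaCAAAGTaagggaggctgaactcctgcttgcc
The Slc5a1 window is thus free of these 4 strings, although Slc5a1 alone among the 10 separated the groups. A match in these letters is a description of the sequence and was not tested for factor binding.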

How the data were processed

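RNA of sorted ZSgreen-positive cells was sequenced from 4 scopolamine and 4 sham mice. The authors demultiplexed and trimmed reads with bcl2fastq 2.20, assigned them to the GRCm38 transcriptome with kallisto 0.44.0, summed them per gene with tximport and deposited estimated counts per gene, as whole numbers and without normalization. Which annotation release was used, and whether strand was, is not given in the sources used here, so overlapping genes can share reads. RNA input and amplification cycles were taken from the study's source data. The mouse ID letter is not explained.

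Groups came from the treatment label, and replicates were numbered 1 to 4 within a group by order of deposition, which pairs no mice. Estimated counts were rounded, which changed none, and tested with edgeR 4.0.16 (TMM, filterByExpr, quasi-likelihood test) in R 4.3.3, with Benjamini-Hochberg adjustment over all genes and an adjusted p under 0.1. Standard errors are those implied by the F statistic. Single genes were also compared by exact permutation over 70 assignments on log2(CPM + 1). Correlations used log2 CPM with a prior count of 2. Coordinates are from GENCODE release M21, in which 34956 symbols matched, and promoters from RefSeq. Intervals and floors cover counting error only. All pairs of libraries differed by more than sampling noise (chi-square per degree of freedom of at least 67.5).

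By rule the text names the 10 members, 9 genes that act beside the members, the 6 other transport genes with the smallest p and the 10 genes most like the members; 2 of these genes are not reported here. Members and lists were chosen with earlier results of these data known. As alternatives, limma-voom (limma 3.58.1) and DESeq2 1.42.0 replaced edgeR; scaling used the library size alone or size factors from DESeq2; the filter was dropped or raised to 10 counts in each library; and further fits used an adjusted p under 0.05, thinning to the smallest total, cycles or mouse ID letter as covariates, and leaving out both low-input libraries or each replicate. Leaving Slc5a1 out of the sum, and counting separated members without the low-input libraries, were added after seeing the data.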

Additional observations from a re-analysis of the deposited data

Results flagged for a closer look

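Within the 22 groups of 4 libraries examined (each member and their sum, in each treatment group), 5 had 1 library far from the others, its gap to the nearest value, relative to the range of the group, exceeding Dixon's 95% limit. Chance alone flags about 1 in 20 groups. Slc2a5 was at 19.5 CPM and Slc6a19 at 7.23 CPM in sham replicate 1, a low-input library and the 1 sham library with the mouse ID letter M. Slc40a1 was at 11.7 CPM in sham replicate 3, the other low-input library. Slc2a2 was at 3.73 CPM in sham replicate 4, a standard-input library that had the lowest Slc5a1 level. Slc26a3 was at 6.66 CPM in scopolamine replicate 1, the library with the lowest transporter sum of its group.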

How the results depend on the processing

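Of 175 member fold changes recomputed under the alternatives, 166 kept their direction and side of the threshold, and 8 members kept their direction throughout. Slc5a1 passed the adjusted threshold with DESeq2 (2.53), without both low-input sham libraries (3.94) and with cycles as a covariate (3.97). The last of these rests on the same standard-input libraries as the one before it. Slc5a1 ranged from 2.23 to 2.92 when each replicate was left out. Slc40a1 turned to 0.75 with limma-voom, 3.78 without the low-input libraries, 3.83 with cycles, 0.052 with the mouse ID letter and 1.83 without sham replicate 3 (-1.69 to 1.83 with each replicate left out), and Slc6a19 turned to -0.034 with the letter. Without sham replicate 1, Slc2a5 held 1 count in the remaining sham libraries and its ratio was 1055 (95% counting interval 189 to 41686), and the log2 fold change was 6.43 for Slc6a19, 3.51 for Slc9a3, 1.55 for Slc26a3 and -0.37 for Slc10a2, and the members' median from the fit without a filter 1.93; without sham replicate 4 it was 2.85 for Slc2a2. Sham replicate 1 was both a low-input library and the 1 sham library with the letter M. The cause was not tested.

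Genes past the adjusted threshold numbered 190 with DESeq2, 9 without the low-input libraries, 5 with cycles and 0 to 2 with each replicate left out (1 without scopolamine replicate 4, 2 without sham replicate 1). Members with an unadjusted p under 0.05 numbered 1 without a filter (8.4% of all genes in that fit), 7 without the low-input libraries (8.63%), 8 with cycles (6.17%), 1 with the letter (5.3%) and 1 to 6 with each replicate left out (3.33 to 9.1%). That count was 6 without sham replicate 1 (9.1%), and 1 without sham replicate 2 or 3 or scopolamine replicate 2 or 3. The median log2 fold change from the fit without a filter, 1.125 with all libraries, was 3.47 both without the low-input libraries and with cycles. With limma-voom that median was 2.07. In the filtered limma-voom fit the log2 fold change was 6.11 for Slc2a5, 3.93 for Slc6a19 and 2.26 for Slc2a2, while that of Slc7a9 fell to 0.85. The log2 ratio of the sums was 2.88 without the low-input libraries. Separated members then numbered 5.

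No paired analysis was possible because the labels give no replicate numbers. With 4 mice a group and 20 or fewer counts behind some values of Slc2a2, Slc2a5, Slc15a1, Slc6a19, Slc9a3, Slc10a2 and Slc40a1, differences of these genes were measured imprecisely, and 3 counts set the floor.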
